A study of Mus musculus with 27 samples.

Results

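Liver RNA-Seq compared 7 littermate control mice fed a diet high in fat and sucrose (HF/HS) with 7 littermate controls on chow. These 14 mice are the control libraries among 27, chosen by the genotype and diet in their labels. The other 13 are HGFAC-KO mice, 6 on chow and 7 on HF/HS, which lack hepatocyte growth factor activator (HGFAC) in the whole body and share no mouse with the comparison. All were male mice on the C57BL/6J background, 8 weeks of age when the diets began and 4 weeks on diet. The HF/HS diet, from Research Diets, held 45% fat and 18% sucrose. The chow was from LabDiet, and its composition is not given in the sources used here. The diets may differ in other ingredients, so the part of fat or sucrose in any difference cannot be told apart from theirs. The labels give 1 library per mouse and name no litter, cage or collection day, so the spread between mice is the only error that the tests see. Feeding state and hour of collection of the sequenced livers are not given in the sources used here. The study describes triglyceride measurements on livers of these genotypes and diets taken when mice had been fasted overnight and then refed, and does not say whether those were the same mice.

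The liver meets a diet through a small number of sensors. SREBP2 turns on cholesterol synthesis when sterols in the cell are scarce, ChREBP (Mlxipl) responds to sugar metabolites, and PPARα (Ppara) responds to fatty acids. The nuclear receptors PXR (Nr1i2) and CAR (Nr1i3) respond to foreign compounds, bile acids and steroids, and turn on cytochrome P450 enzymes, conjugating enzymes and transporters. NRF2 (Nfe2l2) turns on antioxidant enzymes, and interferons act through STAT proteins and interferon regulatory factors.

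Total counts per library ranged from 44300847 to 55534863 on chow and from 36056177 to 52846304 on HF/HS, and the diets were not separated by depth (two-sided exact permutation test, p = 0.107). The first principal component held 28.4% of the variance and placed every HF/HS mouse on the other side from every chow mouse. HF/HS replicate 7 stood apart from its group, with a median correlation of 0.980 with the other HF/HS mice and the highest levels of acute phase genes. Hepatocyte markers summed to between 98242 and 112936 CPM (counts scaled to a common library size) on chow and between 99005 and 118288 CPM on HF/HS (exact permutation test, p = 0.936, 14 of 14 markers measured), in accord with the labelled tissue. Among markers of other cells, the smallest exact p-values were those of stellate cells, at 304 to 397 CPM on chow and 339 to 443 CPM on HF/HS (10 markers, exact p = 0.0303), and those of lymphocytes and neutrophils, at 10.4 to 18.5 and 14.5 to 26.2 CPM (20 markers, 17 of them under 1 CPM, exact p = 0.0455). Kupffer cell markers summed to 266 to 527 CPM on chow and 344 to 723 CPM on HF/HS (16 markers, exact p = 0.151). Sinusoidal endothelial markers gave 377 to 584 and 430 to 688 CPM (20 markers, exact p = 0.0589), and cholangiocyte markers 114 to 142 and 122 to 150 CPM (14 markers, exact p = 0.187). Markers of adipocytes, muscle, pancreas and blood gave 640 to 1293 and 660 to 2287 CPM (16 markers, exact p = 0.112). Of the 7 of these 16 that were tested, 5 had a log2 fold change below 0, with a median of -0.15, and 1 was called, the hemoglobin gene Hba-a2, which was lower (adjusted p = 0.0238), a call lost without HF/HS replicate 2. Most of the sum was Car3, which was at 438 to 989 CPM on chow and 430 to 2135 CPM on HF/HS and was not called (adjusted p = 0.125). Of all the markers of every cell type, only Lep was at 0 counts in every mouse. In whole tissue, a change in the number of cells of a type cannot be told apart from a change in RNA per cell.

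Of 13525 genes tested by edgeR's quasi-likelihood test, 1424 (10.5%) passed an adjusted p of 0.05, with 667 (4.93%) higher and 757 (5.60%) lower on HF/HS. Most of these differences were small. The median absolute log2 fold change of the called genes was 0.40, and 62.0% of them lay under 0.5. Differences of at least 1 on the log2 scale numbered 56 higher and 96 lower. For 484 genes (3.58% of those tested) the 7 HF/HS values did not overlap the 7 chow values, and 476 of these were called. The median log2 fold change over all genes tested was 0.0036, a value that the TMM scaling itself sets near 0, so fold changes are relative to the bulk of genes. The number of calls was 976 without chow replicate 6 and 1780 without HF/HS replicate 4.

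Gene lists, written from textbook knowledge with earlier results of these data known, are described below by how many tested members were called in each direction. The shares to read them against are those over all genes tested, 4.93% higher and 5.60% lower. The list plot sets the shares side by side.

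**Figure D1:**
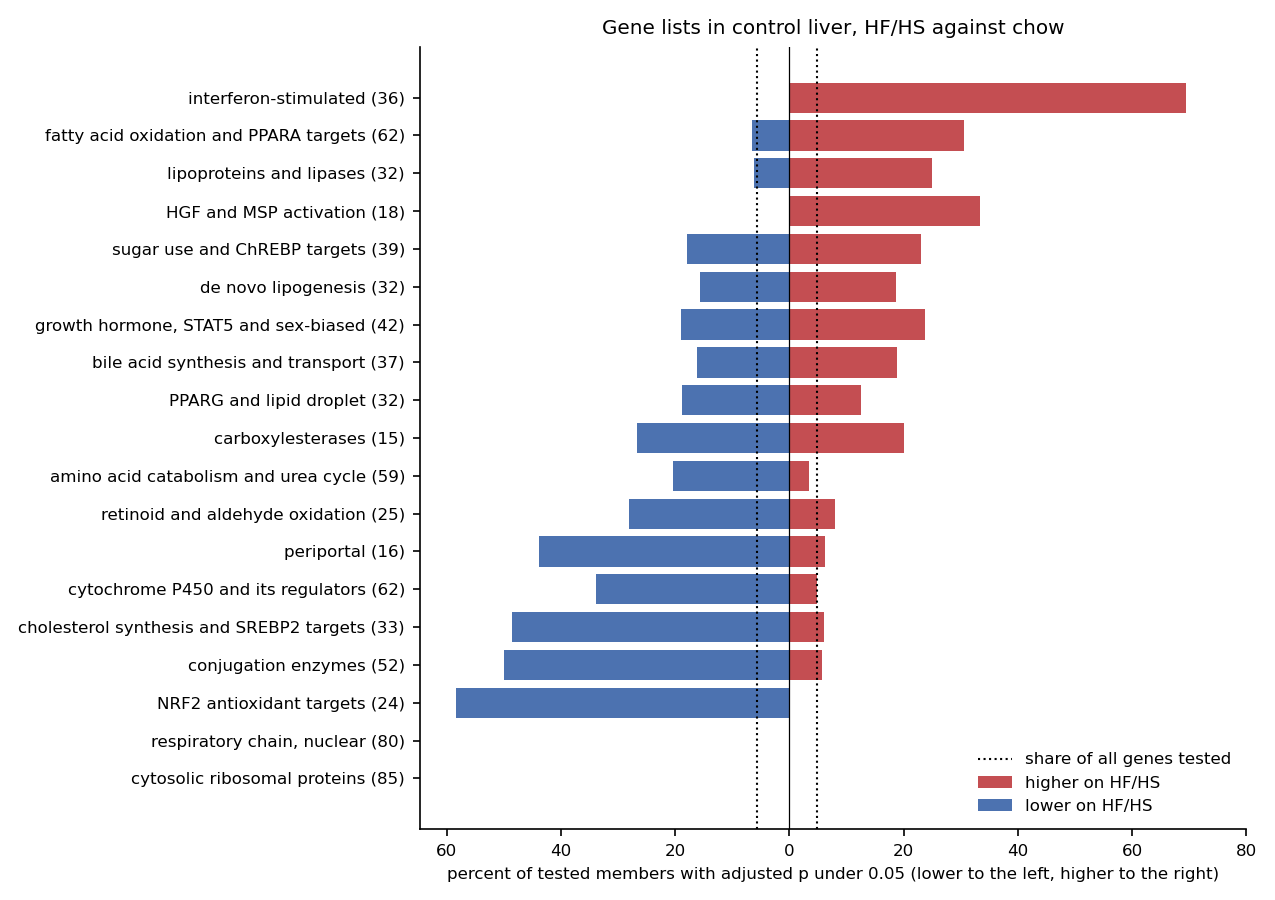
Percent of tested members of 19 gene lists that were called higher (red, right) or lower (blue, left) on HF/HS in control liver, with the number of tested members in parentheses and dotted lines at the shares over all 13525 genes tested. Interferon-stimulated genes extend only to the right, NRF2 antioxidant targets only to the left, and the cytosolic ribosome and the nuclear-encoded respiratory chain have no bar.

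The largest falls on HF/HS were in genes of drug and steroid oxidation. Cytochrome P450 enzymes insert oxygen into drugs, steroids and fatty acids, and Por passes them the electrons they need. Of 62 tested genes in the list of P450 enzymes and their regulators, 21 were lower and 3 were higher, with a median log2 fold change of -0.16. All 7 HF/HS mice lay below all 7 chow mice in the median level of the list. Cyp3a11, the main CYP3A drug and steroid hydroxylase of mouse liver, ranged from 4284 to 5847 CPM on chow (median 5271) and from 330 to 738 CPM on HF/HS (median 468). The groups did not overlap, and the log2 fold change was -3.24 (SE 0.19, adjusted p = 5.78e-08), which left 10.6% of the chow level. Cyp3a59 had the smallest p-value of all genes tested, with a log2 fold change of -3.09 (SE 0.12, adjusted p = 1.3e-10).

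The fall covered the CYP3A family by position as well as by name. Of 8 tested Cyp3a genes, 7 fell, with a median log2 fold change of -3.16 over the 8. The 7 lie together at chr5:145436309-146113287 (GRCm38). Cyp3a13, the other member, starts at 137892932 on the same chromosome and was not called (log2 fold change -0.21, adjusted p = 0.0875). Cyp3a25 kept 37.5% of its chow level, the most of the 7 that fell. Cyp3a41a, Cyp3a41b, Cyp3a16 and Cyp3a44 are near-identical, so their separate values depend on how shared reads were assigned, and 4 of the 7 are too low to be tested when 10 counts are required in every library. Summed over mice, Cyp3a41b had 844 counts on chow and 19 on HF/HS, and its ratio, corrected for library size, was 40.5 with a 95% interval of 25.8 to 67.6, which covers counting error only.

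Cyp2b10, the gene most used to read out CAR activity, had the largest fall of any gene tested. It ranged from 2.5 to 15.9 CPM on chow (median 5.05) and from 0 to 0.0716 CPM on HF/HS (median 0.0523). Chow mice held 2227 counts in all and HF/HS mice 10, with 2 HF/HS mice at 0, a ratio of 203 (95% interval 110 to 424, counting error only). Cyp2a5, a coumarin hydroxylase, ranged from 199 to 547 CPM on chow and from 35.3 to 78.5 CPM on HF/HS (medians 314 and 55.9), a log2 fold change of -2.51 (SE 0.22, adjusted p = 6.81e-06). Every HF/HS mouse was below every chow mouse for both genes.

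Of the other P450 enzymes, Cyp2c29 fell by 1.51 on the log2 scale (SE 0.15, adjusted p = 2.07e-05), from 888 to 1376 CPM on chow to 232 to 464 CPM on HF/HS. Cyp2c55 fell by 2.63 (SE 0.18, adjusted p = 1.97e-07). Cyp1a2, a target of the aryl hydrocarbon receptor that metabolizes caffeine, fell by 0.79 (SE 0.10, adjusted p = 0.000157), and Por fell by 0.49 (SE 0.08, adjusted p = 0.000883). In the other direction, Cyp2d40 rose by 0.92 (SE 0.08, adjusted p = 1.8e-06), Cyp2u1, a fatty acid hydroxylase, by 0.62 (SE 0.13, adjusted p = 0.0053), and Cyp2j5, an arachidonic acid epoxygenase, by 0.18 (SE 0.05, adjusted p = 0.0443). The call on Cyp2j5 was kept only without chow replicate 1 or HF/HS replicate 3 or 4 and reached an adjusted p of 0.0885 without another mouse. The receptors themselves did not pass the test. Their log2 fold changes were 0.15 for Nr1i2 (adjusted p = 0.237), -0.12 for Nr1i3 (adjusted p = 0.654) and 0.04 for Ahr (adjusted p = 0.885).

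**Figure D2:**
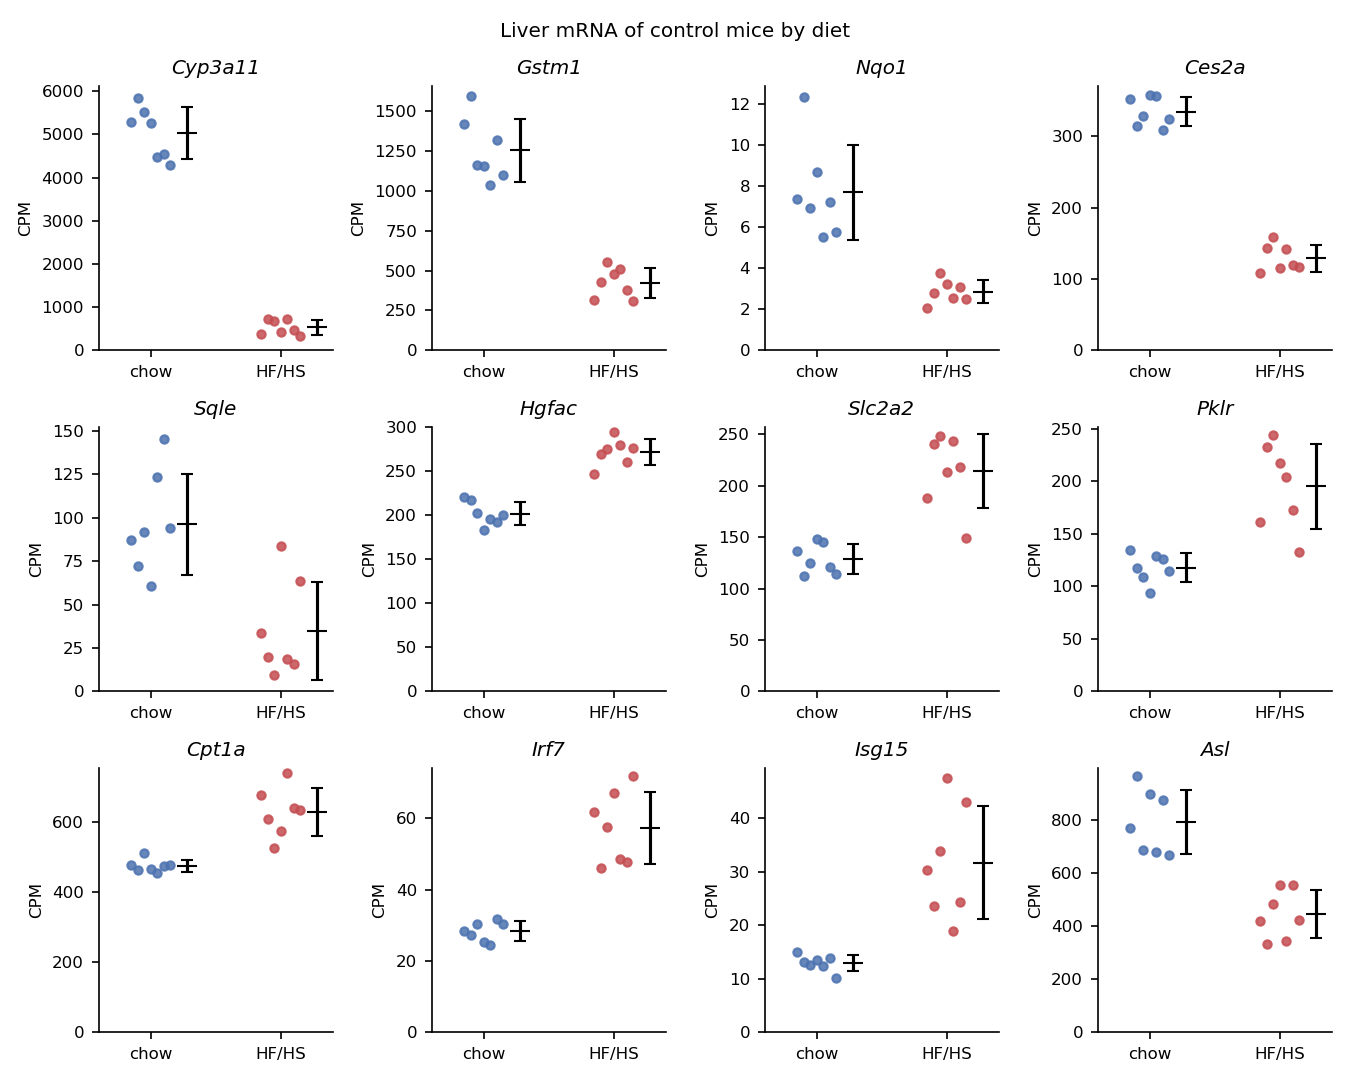
CPM of 12 genes in each control mouse on chow (blue) and HF/HS (red), 1 point per mouse, with the mean and SD of each group in black and every axis starting at 0. The diets do not overlap for any gene shown other than Sqle and Pklr, and the highest HF/HS value of Sqle, 83.7 CPM, belongs to replicate 4.

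Conjugating enzymes attach glutathione, glucuronic acid or sulfate to the products of oxidation. Like the P450 enzymes, they were called lower more often than higher. Of 52 tested genes, 26 were lower and 3 were higher, with a median log2 fold change of -0.41. The count fell on the glutathione transferases, 15 of 21 lower, and the UDP-glucuronosyltransferases with Ugdh, which supplies their substrate, 9 of 17 lower, with none of either kind higher. Gstm1 ranged from 1038 to 1591 CPM on chow (median 1162) and from 310 to 552 CPM on HF/HS (median 429), without overlap (log2 fold change -1.57, SE 0.14, adjusted p = 3.91e-06). It lies in the cluster of mu-class transferases at chr3:107895821-108044894 (GRCm38), where 6 of 7 tested genes were called. Gstm3 kept 17.2% and Gsta2 18.7% of the chow level. Ugt1a9, whose transcripts share their last exons with the other Ugt1a genes so that its reads cannot be fully separated from theirs, fell from 38.8 to 91.1 CPM to 11.3 to 18.1 CPM (log2 fold change -2.14, SE 0.16, adjusted p = 9.1e-07).

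Ugdh, which makes UDP-glucuronic acid and is 1 of those 9, fell by 0.94 (SE 0.07, adjusted p = 4.1e-07). Ephx1, the microsomal epoxide hydrolase, fell by 0.95 (SE 0.10, adjusted p = 2.68e-05). The 14 sulfotransferases and other enzymes of the list behaved differently in count, with 2 lower and 3 higher. Sult2a8, a hydroxysteroid sulfotransferase, rose by 0.45 (SE 0.07, adjusted p = 0.000366), and Ephx2, the soluble epoxide hydrolase that acts on fatty acid epoxides, rose by 0.30 (SE 0.05, adjusted p = 0.00132). Sult1b1 rose by 0.40 (SE 0.11), with an adjusted p of 0.0343 that became as high as 0.0719 without 1 of 5 mice (chow replicates 5, 6 and 7 and HF/HS replicates 5 and 7).

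The list of NRF2 targets and 3 factors gave 14 lower and none higher of 24 tested, with a median log2 fold change of -0.24. The diets did not overlap in the median level of the list. All 14 were among its 21 targets, whose median log2 fold change was -0.25. Nqo1, the quinone reductase most used to read out NRF2, ranged from 5.52 to 12.4 CPM on chow (median 7.25) and from 2.08 to 3.77 CPM on HF/HS (median 2.8). It fell by 1.43 (SE 0.17, adjusted p = 6.5e-05). Cbr1, a carbonyl reductase, fell by 0.79 (SE 0.09, adjusted p = 3.13e-05), and Srxn1, which repairs oxidized peroxiredoxins, by 0.57 (SE 0.09, adjusted p = 0.000942). The calls on the 2 subunits of the enzyme that starts glutathione synthesis were less firm. Gclm fell by 0.25 (SE 0.07, adjusted p = 0.0264), a call lost without chow replicate 7 or HF/HS replicate 1, at an adjusted p of up to 0.0540. Gclc fell by 0.46 (SE 0.14, adjusted p = 0.0497), a call kept only without chow replicate 4 or HF/HS replicate 2, 3, 5 or 7. Hmox1, the heme oxygenase that is another standard target, was not called (log2 fold change 0.15, adjusted p = 0.776). Neither Nfe2l2 (0.18, adjusted p = 0.173) nor its inhibitor Keap1 (-0.01, adjusted p = 0.953) passed the test. Ugdh, Ephx1, Abcc3 and Abcc4 belong both to this list and to the lists of drug metabolism or transport.

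Transporters at the blood side of the hepatocyte moved in both directions. Abcc3, which exports conjugates into blood, ranged from 428 to 637 CPM on chow (median 481) and from 152 to 283 CPM on HF/HS (median 215), a log2 fold change of -1.20 (SE 0.13, adjusted p = 2.39e-05). Abcc4, a related exporter, fell by 1.28 (SE 0.17, adjusted p = 0.000223). Slco1a4, an uptake carrier for organic anions, ranged from 66.2 to 114 CPM on chow (median 82.5) and from 13.2 to 26.3 CPM on HF/HS (median 17.5), a log2 fold change of -2.18 (SE 0.17, adjusted p = 1.53e-06). Other uptake carriers were higher. Slco1b2 rose by 0.48 (SE 0.08, adjusted p = 0.00105) and Slco1a1 by 0.53 (SE 0.11, adjusted p = 0.00724). Slc10a1, the main bile acid uptake carrier, rose by 0.28 (SE 0.09, adjusted p = 0.0473), a call kept only without HF/HS replicate 1 or 7 (adjusted p up to 0.0943). Of the 37 tested genes of bile acid synthesis and transport, 7 were higher and 6 lower. Cyp7a1, the rate-limiting enzyme of bile acid synthesis, varied from 45.9 to 181 CPM on chow and from 71.9 to 314 CPM on HF/HS and was not called (adjusted p = 0.829), and Abcb11, the bile salt export pump, had a log2 fold change of 0.12 (adjusted p = 0.237).

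Carboxylesterases split within the family. These enzymes cleave ester drugs and lipids, and of 15 tested 4 were lower and 3 higher, counts that stayed at 7 in all without any single mouse. Ces2a ranged from 309 to 358 CPM on chow (median 329) and from 108 to 159 CPM on HF/HS (median 120), a fall of 1.37 with the smallest SE of the lower members (SE 0.08, adjusted p = 3.77e-08). Ces2c fell by 1.22 (SE 0.17, adjusted p = 0.000377), Ces1b by 0.87 (SE 0.12, adjusted p = 0.000377) and Ces1g by 0.63 (SE 0.16, adjusted p = 0.0185). Ces4a went the other way, from 1.58 to 3.29 CPM on chow to 5.78 to 11.8 CPM on HF/HS, and was 3.54 times its chow level (log2 fold change 1.82, SE 0.19, adjusted p = 2.36e-05). Ces3b rose by 0.53 (SE 0.07, adjusted p = 0.000261) and Ces3a by 0.30 (SE 0.07, adjusted p = 0.00869). All 7 values on HF/HS lay outside the chow range for each of these genes except Ces1g.

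Retinoid and aldehyde oxidation held another large fall. Cyp26a1, which hydroxylates retinoic acid and is itself induced by it, ranged from 14.8 to 125 CPM on chow (median 22.9) and from 1.93 to 7.1 CPM on HF/HS (median 3.3). The groups did not overlap although chow replicate 5, at 125 CPM, stood far above the other chow mice (log2 fold change -3.31, SE 0.55, adjusted p = 0.00187). In this list 7 of 25 tested genes were lower and 2 higher. The neighboring aldehyde oxidases Aox1 and Aox3 moved apart, Aox1 falling by 0.63 (SE 0.08, adjusted p = 0.000112) and Aox3 rising by 0.61 (SE 0.08, adjusted p = 0.000148).

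Of 33 tested genes of cholesterol synthesis, 16 were lower, 2 higher and 15 not called, with a median log2 fold change of -0.62. Among the 22 enzymes of the pathway, 11 were called, all lower, and 21 had a log2 fold change below 0. Hmgcs1, the synthase that starts the pathway, carries the core of the sterol regulatory element in its promoter, printed here from RefSeq (GRCm38.p6, chr13:119690151-119690350, plus strand, 200 bases up to the start site) with the match in capitals.

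Hmgcs1: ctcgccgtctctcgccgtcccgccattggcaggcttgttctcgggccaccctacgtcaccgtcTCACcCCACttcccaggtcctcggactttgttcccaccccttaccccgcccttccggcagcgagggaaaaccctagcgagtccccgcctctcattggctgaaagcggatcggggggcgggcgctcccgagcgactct

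Hmgcs1 ranged from 159 to 465 CPM on chow (median 224) and from 70.4 to 264 CPM on HF/HS (median 102). It was the only 1 of 25 list genes with a promoter window whose window held the core TCACNCCAC, in which N is any base, on either strand (3.23% of the list's windows and 1.23% of the windows of all genes tested). The windows run from 250 bases before to 50 bases after each start site. A CCAAT box, CCAAT on either strand, was in 67.7% of the list's windows and in 37.5% of those of all genes tested. A match describes the letters of the window and not a bound factor.

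The sterol genes varied from mouse to mouse on HF/HS, and HF/HS replicate 4 held the highest HF/HS value of Sqle, Hmgcs1, Insig1, Tm7sf2 and Srebf2. Sqle, squalene epoxidase, ranged from 60.9 to 145 CPM on chow (median 91.7) and from 9.19 to 83.7 CPM on HF/HS (median 19.6), so that the groups overlapped in replicates 4 and 7 only. Its log2 fold change was -1.47 (SE 0.44, adjusted p = 0.0499). Hmgcs1 fell by 1.13 (SE 0.32, adjusted p = 0.0392) and Insig1, which retains SREBP in the endoplasmic reticulum when sterols are plentiful, by 1.04 (SE 0.24, adjusted p = 0.0141), from 194 to 427 CPM on chow to 84.8 to 252 CPM on HF/HS. Tm7sf2, a sterol reductase, was the sterol gene with the smallest p-value and did not overlap, at 100 to 121 CPM on chow (median 112) and 54 to 89.4 CPM on HF/HS (median 60.7; log2 fold change -0.74, SE 0.10, adjusted p = 0.000269).

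Without HF/HS replicate 4 the called sterol enzymes numbered 18 of 22 and the list as a whole 23 lower and 2 higher. Without chow replicate 6 the list had 6 lower and 1 higher, and without any one of chow replicates 1, 2, 5 and 7 or HF/HS replicates 1, 2, 3, 5 and 6 it had between 6 and 9 lower. The calls on Sqle and Hmgcs1 were lost without 12 and 10 of the 14 mice, at adjusted p-values up to 0.102 and 0.0854, and both were kept without HF/HS replicate 4. Those on Tm7sf2 and Insig1 were kept without each mouse, and that on Insig1 was lost when all 27 mice shared 1 estimate of the spread. Of the regulators, Srebf2, which encodes SREBP2, fell by 0.42 (SE 0.12, adjusted p = 0.036), a call kept only without chow replicate 3 or 4 or HF/HS replicate 4 or 7, and Scap, its escort, was not called (0.08, adjusted p = 0.386). The 2 members that rose were Mbtps1, a protease that cleaves SREBPs, by 0.20 (SE 0.05, adjusted p = 0.0137), and Mylip, a ubiquitin ligase driven by LXR, by 0.47 (SE 0.13, adjusted p = 0.0238). The call on Mylip was lost without chow replicate 1 or 6 (adjusted p up to 0.0511).

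Some genes of fatty acid oxidation rose by small amounts. Of 62 tested genes in the list of fatty acid oxidation and PPARα targets, 19 were higher, 4 lower and 39 not called, with a median log2 fold change of 0.10. Fabp1, the abundant fatty acid binding protein of hepatocytes, ranged from 2331 to 3302 CPM on chow (median 2597) and from 3348 to 4695 CPM on HF/HS (median 3841), a log2 fold change of 0.61 (SE 0.09, adjusted p = 0.000359). Cpt1a, which commits fatty acids to mitochondria, rose from 453 to 510 CPM to 526 to 740 CPM (log2 fold change 0.41, SE 0.06, adjusted p = 0.000702). The diets did not overlap in either gene.

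Vnn1, a pantetheinase and PPARα target, rose by 0.66 (SE 0.11, adjusted p = 0.000996), and Slc27a2, a fatty acid transport protein with acyl-CoA synthetase activity, by 0.33 (SE 0.05, adjusted p = 0.000457). Ppara itself rose by 0.42 (SE 0.10, adjusted p = 0.0162), from 204 to 290 CPM on chow to 249 to 429 CPM on HF/HS, with 6 of 7 HF/HS mice above every chow mouse. The 4 lower members were of other kinds. Pdk4, which blocks the entry of pyruvate into the citric acid cycle and rises in fasting, ranged from 7.8 to 16.7 CPM on chow and from 3.21 to 10.4 CPM on HF/HS (log2 fold change -0.93, SE 0.24, adjusted p = 0.0227), a call lost without chow replicate 2 (adjusted p = 0.0516). Cyp4a12a, a fatty acid hydroxylase expressed in males, fell by 0.62 (SE 0.10, adjusted p = 0.00114) and the near-identical Cyp4a12b by 0.43 (adjusted p = 0.0224), the latter lost without chow replicate 5. Esrra, an activator of mitochondrial genes, fell by 0.35 (SE 0.07, adjusted p = 0.00303). Several standard PPARα targets were not called, among them Cyp4a10 (log2 fold change 0.03, adjusted p = 0.859), Cyp4a14 (-0.32, adjusted p = 0.163) and Cpt2 (0.05, adjusted p = 0.608).

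Lipid droplet genes and targets of PPARγ, a nuclear receptor that drives fat storage, gave 4 higher and 6 lower of 32 tested. Fabp5, a fatty acid binding protein, was among the largest rises of all genes, from 3.98 to 14.2 CPM on chow (median 8.88) to 14.7 to 49.1 CPM on HF/HS (median 32.8), without overlap (log2 fold change 1.83, SE 0.28, adjusted p = 0.000988). Fabp2 rose by 0.71 (SE 0.11, adjusted p = 0.000808), and Mgll, monoacylglycerol lipase, by 0.52 (SE 0.08, adjusted p = 0.000762). The enzymes that open triglyceride stores were lower. Lipe, hormone-sensitive lipase, fell by 0.55 (SE 0.08, adjusted p = 0.000557), from 18.5 to 24.7 CPM to 11.7 to 17.2 CPM, and Pnpla2, adipose triglyceride lipase, by 0.36 (SE 0.07, adjusted p = 0.00257). Plin3, a droplet coat protein, fell by 0.54 (SE 0.09, adjusted p = 0.00152), while Plin2 had a log2 fold change of 0.05 (adjusted p = 0.8). Cd36, a fatty acid translocase, ranged from 28.1 to 46.6 CPM on chow (median 40.8) and from 16.5 to 37.3 CPM on HF/HS (median 23.9), a log2 fold change of -0.62 (SE 0.16, adjusted p = 0.0265). That call was lost without chow replicate 4 or 6 or HF/HS replicate 6 (adjusted p up to 0.0528). Pparg ranged from 5.64 to 7.39 CPM on chow and from 3.23 to 7.62 CPM on HF/HS and was not called (log2 fold change -0.22, adjusted p = 0.449), nor was its target Fabp4 (0.12, adjusted p = 0.557).

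Lipogenic genes were called in both directions. Of 32 tested, 6 were higher and 5 lower, with a median log2 fold change of 0.06. The genes that rose were 3 elongases, the desaturase Fads2 and 2 others. Elovl3 ranged from 132 to 207 CPM on chow (median 154) and from 173 to 368 CPM on HF/HS (median 307), a log2 fold change of 0.81 (SE 0.15, adjusted p = 0.00249). Fads2 rose by 0.49 (SE 0.10, adjusted p = 0.00554), Elovl2 by 0.34 (SE 0.08, adjusted p = 0.0112) and Elovl5 by 0.29 (SE 0.07, adjusted p = 0.0207). Elovl1, another elongase, fell by 0.45 without overlap (SE 0.07, adjusted p = 0.000809), and Acacb, the mitochondrial acetyl-CoA carboxylase whose product blocks Cpt1a, fell by 0.40 (SE 0.09, adjusted p = 0.0112). The calls on Acacb and Elovl5 were lost when all 27 mice shared 1 estimate of the spread.

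Scd1, stearoyl-CoA desaturase, spread from 1748 to 4314 CPM on chow (median 3159) and from 1788 to 11301 CPM on HF/HS (median 4596) and was not called (log2 fold change 0.79, SE 0.36, adjusted p = 0.189). Fasn, fatty acid synthase, was level with chow at 381 to 613 and 337 to 813 CPM (log2 fold change -0.01, SE 0.18, adjusted p = 0.979). Acaca, the cytosolic carboxylase, was not called. Acly (-0.18, adjusted p = 0.376), Me1 (-0.22, adjusted p = 0.332) and their activator Srebf1 (0.14, adjusted p = 0.732) did not pass the test either. Without chow replicate 5, 6 or 7 or HF/HS replicate 1, the list had 5 members higher and 2 lower.

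Lipoprotein genes gave 8 higher and 2 lower of 32. Apoa1, the main protein of HDL, ranged from 8248 to 9581 CPM on chow (median 9215) and from 11186 to 13177 CPM on HF/HS (median 11776), a log2 fold change of 0.39 (SE 0.05, adjusted p = 0.000292). Apoa5, which promotes the lipolysis of triglyceride-rich particles, ranged from 544 to 635 CPM on chow (median 586) and from 710 to 1269 CPM on HF/HS (median 1073), a log2 fold change of 0.75 (SE 0.11, adjusted p = 0.000348). Neither overlapped between diets. Apob, the structural protein of VLDL, was not called (log2 fold change -0.04, adjusted p = 0.887). Of the 2 lower members, Tm6sf2 is needed for lipid loading of VLDL and fell by 0.57 (SE 0.12, adjusted p = 0.00719).

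The list of sugar use and ChREBP targets had 9 higher and 7 lower of 39 tested, a larger share than the 10.5% of all genes. Its median log2 fold change was 0.08. Among its 28 enzymes and transporters, 7 were higher, 6 lower and 15 not called. Slc2a2, the glucose transporter of hepatocytes, ranged from 112 to 148 CPM on chow (median 125) and from 149 to 249 CPM on HF/HS (median 218), a log2 fold change of 0.74 (SE 0.10, adjusted p = 0.000319). Pklr, liver pyruvate kinase and a standard ChREBP target, ranged from 94 to 135 CPM on chow (median 117) and from 133 to 244 CPM on HF/HS (median 204), a log2 fold change of 0.73 (SE 0.12, adjusted p = 0.00127), with 1 HF/HS mouse inside the chow range. Its window was 1 of 2 in the list, with that of Txnip, that held a carbohydrate response element, read as paired E-boxes (CACGTG) 5 bases apart with at most 2 mismatches. These were 4.26% of the list's windows, and 1.23% of the windows of all genes tested held the element. The stretch below (RefSeq, GRCm38.p6, chr3:89136423-89136571, plus strand, from 200 to 52 bases before the start site of the liver form) has both boxes in capitals, with the match beginning at position -170.

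Pklr: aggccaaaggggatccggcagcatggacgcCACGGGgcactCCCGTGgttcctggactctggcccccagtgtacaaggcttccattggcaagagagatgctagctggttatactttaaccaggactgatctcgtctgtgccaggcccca

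Ldha, lactate dehydrogenase, did not overlap at 838 to 1016 CPM on chow (median 865) and 1130 to 1338 CPM on HF/HS (median 1220), and its log2 fold change was 0.46 (SE 0.06, adjusted p = 7.42e-05). Gpd2, of the glycerol phosphate shuttle, rose by 0.67 (SE 0.10, adjusted p = 0.000432). Khk, which phosphorylates fructose, ranged from 182 to 234 CPM on chow and from 216 to 344 CPM on HF/HS (log2 fold change 0.36, SE 0.10, adjusted p = 0.0251), a call lost without chow replicate 7 or HF/HS replicate 5 (adjusted p up to 0.0524). Of the glycolytic enzymes, Aldoa (-0.27, SE 0.06, adjusted p = 0.00998), Tpi1 (-0.26, SE 0.06, adjusted p = 0.0144) and Pgk1 (-0.18, SE 0.04, adjusted p = 0.00899) were lower on the log2 scale. Tkt, transketolase of the pentose phosphate pathway, fell by 0.43 without overlap (SE 0.07, adjusted p = 0.00134). Mlxipl, which encodes ChREBP, was not called (log2 fold change 0.22, adjusted p = 0.092).

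Hgfac, which the study reports as a ChREBP target and which is not an enzyme of sugar use, had the smallest p-value of that list. It encodes a protease that hepatocytes secrete as a zymogen and that cleaves the precursors of hepatocyte growth factor (HGF) and of macrophage stimulating protein to their active forms. Hgfac ranged from 184 to 221 CPM on chow (median 201) and from 248 to 295 CPM on HF/HS (median 276). Every HF/HS mouse was above every chow mouse, and the rise was 1.35 times the chow level (log2 fold change 0.43, SE 0.05, adjusted p = 5.47e-05, exact p = 0.000583, the smallest that the splits of 14 mice can give). Of 18 tested genes of HGF and MSP activation, 6 were higher and none lower. Hgf rose by 0.53 (SE 0.16, adjusted p = 0.0479) and its receptor Met by 0.31 (SE 0.10, adjusted p = 0.0473). Both calls were kept only without 3 or 4 of the mice, chow replicate 3 and HF/HS replicates 3 and 4 for Hgf and chow replicate 3 and HF/HS replicates 4, 6 and 7 for Met. The other 3, F11, Klkb1 and Plau, are proteases of coagulation, the kinin system and fibrinolysis, with log2 fold changes of 0.37, 0.33 and 0.62. Without chow replicate 2 Hgfac was the only member called, and without chow replicate 5, 6 or 7 or HF/HS replicate 2 or 5 there were 2.

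Gluconeogenesis had 3 of 24 members higher and none lower. Pcx, pyruvate carboxylase, rose by 0.43 without overlap (SE 0.06, adjusted p = 0.000232), and Pygl, glycogen phosphorylase, by 0.22 (SE 0.05, adjusted p = 0.00952). Foxo1, a factor that insulin excludes from the nucleus, rose by 0.21 (SE 0.06, adjusted p = 0.0464), a call kept only without chow replicate 4 or HF/HS replicate 4 or 6. The rate-limiting genes Pck1, at 768 to 2178 and 654 to 2837 CPM, and G6pc, at 70.6 to 271 and 86 to 292 CPM, were not called (adjusted p = 0.698 and 0.321).

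Most interferon-stimulated genes were higher on HF/HS. Of 36 tested, 25 were higher and none lower, 34 had a log2 fold change above 0, and the median was 0.68. For 14 of the 36, all 7 HF/HS mice were above all 7 chow mice. Promoters of these genes often hold 2 GAAA cores spaced by 2 bases, the letters that interferon regulatory factors recognize. The element, read as GAAA, any 2 bases, GAAA on either strand and chosen after the lists had been seen, was in 52.4% of the promoter windows of the members that rose, in 48.5% of those of all members tested and in 3.10% of those of all genes tested. The promoters of 3 members that rose show how the cores repeat, in RefSeq sequence (GRCm38.p6) that ends 1 base before the start site for Isg15 and 19 bases before it for the others, with the cores in capitals (TTTC where the element reads on the opposite strand). The stretches lie at chr4:156200819-156200928 (minus strand) for Isg15, chr19:34640779-34640870 (plus strand) for Ifit1 and chr3:142559934-142560025 (plus strand) for Gbp3.

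Isg15: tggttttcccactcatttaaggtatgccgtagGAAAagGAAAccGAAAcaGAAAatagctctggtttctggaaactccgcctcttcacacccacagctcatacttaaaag
Ifit1: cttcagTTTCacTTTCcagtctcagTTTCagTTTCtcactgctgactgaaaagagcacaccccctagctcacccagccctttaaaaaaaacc
Gbp3: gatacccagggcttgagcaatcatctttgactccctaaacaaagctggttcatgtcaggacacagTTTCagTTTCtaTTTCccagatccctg

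Isg15, a ubiquitin-like modifier, has 4 cores in a row and ranged from 10.1 to 14.9 CPM on chow (median 13.2) and from 18.9 to 47.5 CPM on HF/HS (median 30.4), a log2 fold change of 1.29 (SE 0.18, adjusted p = 0.000348). Ifit1, which binds foreign RNA caps, ranged from 7.25 to 12.7 CPM on chow (median 10.7) and from 18.3 to 40.2 CPM on HF/HS (median 21), a log2 fold change of 1.33 (SE 0.20, adjusted p = 0.000651). Gbp3, a guanylate-binding protein, was 2.13 times its chow level (log2 fold change 1.09, SE 0.18, adjusted p = 0.000931). Ifi44 had the smallest p-value of the list and went from 1.84 to 2.76 CPM (median 1.97) to 4.41 to 8.59 CPM (median 6.1; log2 fold change 1.50, SE 0.15, adjusted p = 8.21e-06).

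The factors that carry the interferon signal were among the members that rose. Irf7, which amplifies the type I response, ranged from 24.4 to 31.8 CPM (median 28.5) and from 46.1 to 71.7 CPM (median 57.4), a log2 fold change of 1.01 (SE 0.10, adjusted p = 1.08e-05). Irf9 rose by 0.61 (SE 0.07, adjusted p = 5.47e-05) and Usp18, which removes ISG15 and dampens the receptor, by 1.27 (SE 0.14, adjusted p = 2.68e-05). Stat2 was not called (log2 fold change 0.22, adjusted p = 0.115), nor was the chemokine Cxcl10 (0.30, adjusted p = 0.523). The count of members called lay between 22 and 26 without any single mouse, and was 23 without HF/HS replicate 7, the mouse with the highest list level (1.17 above the chow mean on the log2 scale).

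Immune cell markers stood beside these values as follows. Of 26 tested genes of Kupffer cells and macrophages, 1 was higher, 10 passed an unadjusted p of 0.05, and the median log2 fold change was 0.29. That gene was Mpeg1, a pore-forming macrophage protein (0.70, SE 0.21, adjusted p = 0.0471), and its call was kept only without HF/HS replicate 3. Clec4f, which marks Kupffer cells, had a log2 fold change of 0.45 (adjusted p = 0.0519). Of 14 tested genes of lymphocytes and neutrophils, 2 were higher, Cd4 and S100a8, and 12 were not called, with a median log2 fold change of 0.08 and overlap of the diets in the level of the list. Cd4, carried by helper T cells and some myeloid cells, did not overlap at 0.598 to 1.16 CPM on chow (median 0.776) and 1.41 to 3.84 CPM on HF/HS (median 2.7), 3.05 times the chow level (adjusted p = 0.000273). The part of cell numbers in the interferon result was not tested. Acute phase genes, which HF/HS replicate 7 raised most, had 1 of 34 called higher, Fgb, one of the fibrinogen chains (log2 fold change 0.40, SE 0.12, adjusted p = 0.0473), and that call was kept only without chow replicate 3 or HF/HS replicate 3, 4 or 7. Without HF/HS replicate 7 the acute phase list had 1 higher and 4 lower.

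**Figure D3:**
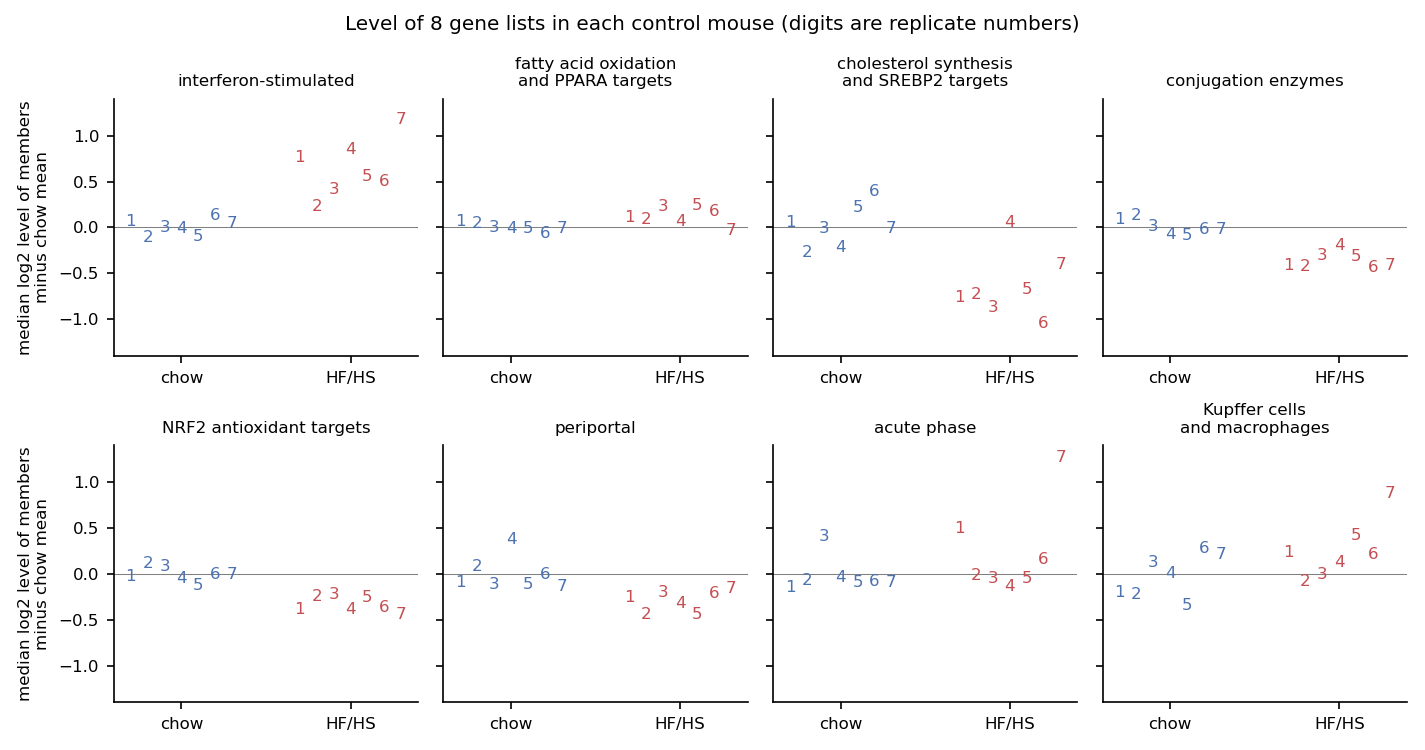
Median log2 level of the tested members of 8 gene lists in each control mouse, relative to the mean of the chow mice, on chow (blue) and HF/HS (red), with digits for the replicate numbers. Interferon-stimulated genes lie above chow in all 7 HF/HS mice and conjugation enzymes, NRF2 targets and periportal genes below, HF/HS replicate 4 stands at chow level in cholesterol synthesis (0.06), and HF/HS replicate 7 is highest in acute phase genes (1.26).

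Amino acid catabolism and the urea cycle gave 12 lower and 2 higher of 59, with a median log2 fold change of -0.10. Asl, which splits argininosuccinate to arginine, ranged from 668 to 964 CPM on chow (median 767) and from 331 to 556 CPM on HF/HS (median 423), without overlap (log2 fold change -0.83, SE 0.13, adjusted p = 0.000609). Ass1, the preceding enzyme, ranged from 1679 to 2614 CPM (median 1909) and from 1183 to 1535 CPM (median 1297), also without overlap (-0.59, SE 0.09, adjusted p = 0.000551). Nags, which makes the activator of the cycle, fell by 0.24 (SE 0.04, adjusted p = 0.00132). The mitochondrial enzymes Cps1 (log2 fold change -0.22, adjusted p = 0.192) and Otc (-0.10, adjusted p = 0.212) were not called. Cth, which makes cysteine, fell by 0.75 (SE 0.13, adjusted p = 0.00119) and Gls2, liver glutaminase, by 0.58 (SE 0.09, adjusted p = 0.00073). The 2 members that rose were Glud1, glutamate dehydrogenase, by 0.29 (SE 0.06, adjusted p = 0.00572), and Slc25a13, the mitochondrial aspartate-glutamate carrier, by 0.16 (SE 0.05, adjusted p = 0.0424), the latter kept only without chow replicate 4 or HF/HS replicate 4 or 7.

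Several of these genes are expressed around the portal vein, and the periportal list had 7 lower and 1 higher of 16, with a median log2 fold change of -0.34 and no overlap between diets in its median level. Etnppl, a phospholyase of phosphoethanolamine, had the largest fall of that list, from 121 to 336 CPM on chow (median 191) to 30.7 to 92.7 CPM on HF/HS (median 59; log2 fold change -1.58, SE 0.26, adjusted p = 0.00157). Apof, an apolipoprotein that inhibits lipid transfer, rose by 0.35 (SE 0.06, adjusted p = 0.00136). Of 18 pericentral genes and Wnt targets, 3 were higher and 2 lower. Ass1, Gls2, Hal and Sdsl belong to both the periportal and the amino acid list, so the counts of these lists are not separate observations.

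Growth hormone, through STAT5, sets which liver genes are expressed differently by sex. Of 21 tested genes known as male-biased, 8 were higher, 2 lower and 11 not called, and of 10 known as female-biased 5 were lower and 5 not called. Hsd3b5, a steroid reductase of male liver, ranged from 67.8 to 128 CPM on chow (median 68.8) and from 172 to 245 CPM on HF/HS (median 219), without overlap (log2 fold change 1.34, SE 0.14, adjusted p = 2.58e-05). Nudt7, a peroxisomal CoA hydrolase, rose by 0.71 (SE 0.11, adjusted p = 0.000663), and Mup20, a major urinary protein whose reads may be shared with its near copies, by 0.54 (SE 0.12, adjusted p = 0.00739). The male-biased genes that fell were Cyp4a12a, given above, and Cyp2d9, by 0.21 (SE 0.06, adjusted p = 0.0462), a call kept only without chow replicate 4 or HF/HS replicate 3 or 4. Of the 5 lower female-biased genes, 4 are Cyp3a genes of the cluster described above, and the fifth is Fmo2, a flavin monooxygenase (-0.67, SE 0.15, adjusted p = 0.0106). When 10 counts were required in every library the female-biased genes gave 1 lower.

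Within the pathway itself, Igf1 was level (log2 fold change 0.03, adjusted p = 0.818), and Ghr, the growth hormone receptor, rose by 0.17 (SE 0.05, adjusted p = 0.0299), a call lost without chow replicate 2, 4, 6 or 7 or HF/HS replicate 1, 2 or 5 (adjusted p up to 0.0667). Cish, which STAT5 induces in pulses, ranged from 1.34 to 2.58 CPM on chow and from 1.34 to 57.6 CPM on HF/HS (median 3.2). HF/HS replicates 2 and 3, at 44.5 and 57.6 CPM, stood far above the other 5, which lay at 8.9 CPM or below. Its log2 fold change of 3.11 (SE 0.92, adjusted p = 0.0476) rested on them, and the adjusted p was up to 0.0935 without another mouse (exact p = 0.121). The call was kept only without HF/HS replicate 1, 4, 5 or 6.

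Secreted factors gave 6 higher and 4 lower of 36. Inhbc, a liver activin subunit, rose by 0.57 (SE 0.11, adjusted p = 0.00389) and Enho, which encodes adropin, by 0.70 (SE 0.16, adjusted p = 0.014). Gdf15, a stress-induced hormone, fell by 0.96 (SE 0.23, adjusted p = 0.016), and Npnt, a matrix protein, by 1.45 (SE 0.26, adjusted p = 0.00194). Fgf21, named after its values were seen, ranged from 0.272 to 1.67 CPM on chow and from 1.16 to 8.33 CPM on HF/HS and was not called (log2 fold change 1.59, SE 0.49, adjusted p = 0.0521). Without chow replicate 2 the list had 3 higher and 2 lower, and without chow replicate 7 it had 3 and 3.

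Iron and zinc handling showed 4 lower and none higher of 24, each without overlap. Slc39a4, a zinc importer, ranged from 80.8 to 105 CPM on chow (median 88.3) and from 30.6 to 44.5 CPM on HF/HS (median 38.9), a log2 fold change of -1.22 (SE 0.08, adjusted p = 5.78e-08). Tfrc, the transferrin receptor, ranged from 38.5 to 60 CPM (median 47.1) and from 18.2 to 32.4 CPM (median 24), a log2 fold change of -0.97 (SE 0.11, adjusted p = 5.63e-05). The ferritin chains, which store iron, fell as well, Ftl1 by 0.64 (SE 0.08, adjusted p = 9.43e-05) and Fth1 by 0.52 (SE 0.07, adjusted p = 0.000263). Hamp, which encodes hepcidin, the hormone that limits iron entry, varied from 120 to 331 CPM on chow and from 165 to 449 CPM on HF/HS and was not called (adjusted p = 0.449). Mt2, a metallothionein, was not called (log2 fold change 1.81, adjusted p = 0.394), and its value came from HF/HS replicate 7 at 183 CPM, with a log2 fold change of -1.84 without that mouse (adjusted p = 0.0394).

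Clock genes can move with the hour of collection or of feeding, neither of which is given for these livers, and the part of a fast and refeeding in the result was not tested. Of 22 tested, 2 were called (9.09%), a share near the 10.5% of all genes tested. Both were higher, Nr1d1, a repressor of the clock, by 0.77 (SE 0.20, adjusted p = 0.0272), and Dbp, an output factor, by 1.47 (SE 0.39, adjusted p = 0.0284). Arntl, the activator that Nr1d1 represses, had a log2 fold change of -0.37 (adjusted p = 0.0717). No clock gene was called without chow replicate 2 or 4 or HF/HS replicate 5, and 6 were called without chow replicate 3.

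Some of the largest changes lay outside the lists, and 1143 of the called genes belonged to none of them. Tff3, a trefoil peptide of mucosal repair, ranged from 0.297 to 2.59 CPM on chow (median 0.75) and from 3.01 to 19.7 CPM on HF/HS (median 6.87). Its rise was the largest among called genes without overlap and with a mean of at least 5 CPM in the higher group (log2 fold change 2.93, SE 0.50, adjusted p = 0.00206). Slc17a8, a vesicular glutamate transporter, was 3.28 times its chow level (log2 fold change 1.71, SE 0.29, adjusted p = 0.00189), and Slc22a7, an organic anion transporter, 3.20 times (log2 fold change 1.68, SE 0.28, adjusted p = 0.00198). Serpina12, which encodes the adipokine vaspin, ranged from 3.7 to 38.4 CPM on chow (median 25.6) and from 47.2 to 85.4 CPM on HF/HS (median 69.8; log2 fold change 1.50, SE 0.35, adjusted p = 0.0151). Gbp11, an interferon-inducible guanylate-binding protein that was not in the interferon list, was 2.47 times its chow level (adjusted p = 0.00626). Hectd2os, an antisense RNA of Hectd2, rose by 1.39 (SE 0.19, adjusted p = 0.000348), a value that may hold reads of the opposite strand, since the strand setting of the counting is not given.

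Among the falls, Snhg11, a noncoding host transcript of small nucleolar RNAs, ranged from 17.2 to 30.5 CPM on chow (median 20.3) and from 2.27 to 5.19 CPM on HF/HS (median 3.77), a log2 fold change of -2.58 (SE 0.17, adjusted p = 1.74e-07). Tuba8, an α-tubulin, ranged from 11.4 to 18 CPM (median 13.4) and from 3.48 to 4.59 CPM (median 3.9), a log2 fold change of -1.79 (SE 0.11, adjusted p = 5.78e-08).

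Ribosomal and respiratory chain lists set the other end of the scale, which does not hold for every list given after them here. No gene was called among 85 cytosolic ribosomal proteins (1 at an unadjusted p under 0.05), 78 mitochondrial ribosomal proteins (10), 80 nuclear-encoded genes of the respiratory chain (8) or the 13 mitochondrial ones (0), and the median log2 fold changes of these 4 lists lay between -0.05 and 0.01. Of 38 proteasome genes 1 was lower. Proliferation markers had 1 higher and 6 lower of 40 (17.5% called, against 10.5% of all genes tested). Of these 40, 33 had a log2 fold change below 0, with a median of -0.32. In the median level of the list, 6 of 7 HF/HS mice lay below every chow mouse. The calls were 1 higher and 3 lower without chow replicate 4, 6 or 7 or HF/HS replicate 6. The unfolded protein response had 1 higher of 33, and insulin signaling 3 higher of 25. Methionine, choline and one-carbon metabolism had 5 lower of 25, and stellate cell and matrix genes 3 higher and 1 lower of 33. No gene of the sinusoidal endothelium (20 tested, 9 at an unadjusted p under 0.05) or of cholangiocytes (10 tested, 1) was called by edgeR. Complement and coagulation genes had 8 higher and 1 lower of 54 (16.7% called), and 2 and 1 without chow replicate 6.

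The same diets in HGFAC-KO mice gave another set of values from mice that the control comparison did not use. There, 13613 genes were tested and 802 (5.89%) were called, with 431 higher and 371 lower. Of the 1424 genes called in controls, 1422 were tested in HGFAC-KO mice, and 1384 of them (97.3%) had a fold change of the same sign. Genes called in both genotypes, always in the same direction, numbered 427, which is 30.0% of the control calls and 53.2% of the HGFAC-KO calls. Among genes that fell by 1 or more in controls, 94 of 94 also fell below 0 on the log2 scale in HGFAC-KO mice and 56 were called, and among those that rose by 1 or more, 54 of 56 had the same sign and 32 were called.

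**Figure D4:**
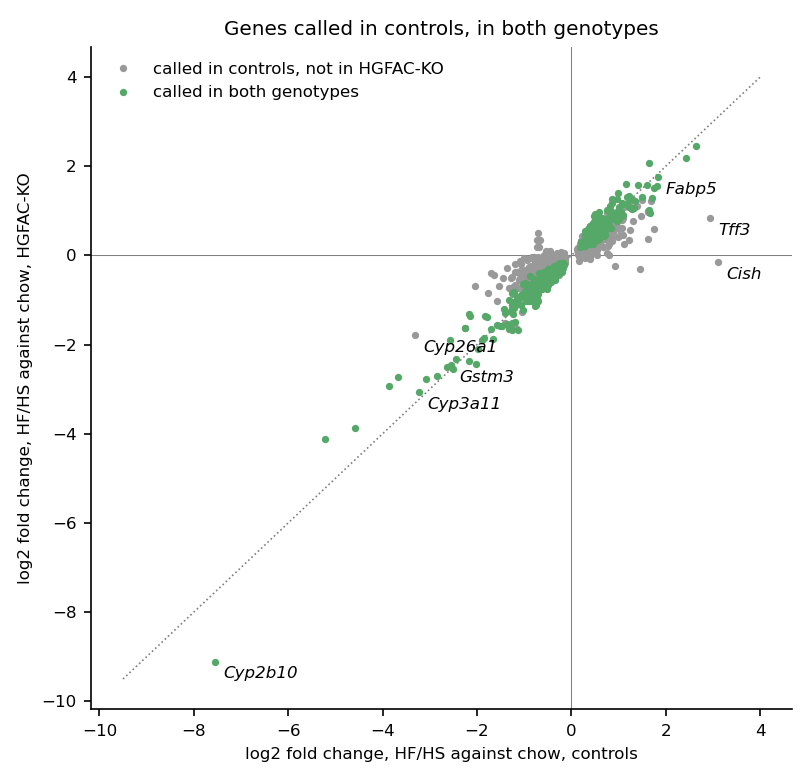
Log2 fold change on HF/HS against chow in controls (x) and in HGFAC-KO mice (y) for the genes called in controls, green where also called in HGFAC-KO mice, with a dotted line where both would be equal. Most points have the same sign on both axes, Cyp3a11 lies near the line and Cyp2b10 below it, while Cish and Tff3 lie nearer to 0 in HGFAC-KO mice.

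Counts of called members in HGFAC-KO mice were near those in controls for some lists and not for others. The Cyp3a genes had 7 of 8 lower, the interferon-stimulated genes 31 of 36 higher, cholesterol synthesis 15 of 33 lower, and conjugation 20 lower and 2 higher of 52. The NRF2 list had 11 lower and 3 higher of 24, and its 21 targets had 11 lower and 2 higher. Cyp3a11 fell by 3.06 in HGFAC-KO mice, and Cyp2b10 fell by 9.11. Amino acid catabolism had 15 lower and none higher of 59. Kupffer cell and macrophage genes had 11 of 26 higher, against 1 in controls. Fewer members were called in fatty acid oxidation (4 higher and 4 lower, against 19 and 4), sugar use and ChREBP targets (3 and 3, against 9 and 7), lipoproteins (3 and 0, against 8 and 2) and HGF and MSP activation (2 and 0, against 6 and 0). Calls were also fewer over all genes tested, 5.89% against 10.5% in controls. When all 27 mice shared 1 estimate of the spread, 1163 genes were called in HGFAC-KO mice and 1418 in controls. Proliferation markers had 1 higher and 2 lower, with a median log2 fold change of 0.11 against -0.32 in controls. These differences in counts were not tested.

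The genotype by diet interaction, which tests whether the diet difference differs between genotypes, called no gene of 13932 (smallest adjusted p = 0.98), with 506 at an unadjusted p under 0.05. DESeq2 and limma voom also called none, with smallest adjusted p-values of 0.0691 and 0.988. Apoa1 had an unadjusted interaction p of 0.000116, with log2 fold changes of 0.39 in controls and -0.07 in HGFAC-KO mice, and did not pass the adjustment. Cish, at 3.11 in controls and -0.15 in HGFAC-KO mice, did not pass it either (unadjusted p = 0.00392). Hgfac mRNA, still counted in HGFAC-KO mice at a mean of 74.9 CPM on chow, rose on HF/HS there by 0.29 on the log2 scale (edgeR, adjusted p = 0.0382), against 0.43 in controls. That difference between genotypes had an unadjusted interaction p of 0.122 (edgeR).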

How the data were processed

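Liver RNA from 27 mice was sequenced as stranded, paired-end mRNA libraries. Per the labels and the study's methods, the authors aligned reads to mm10 with HISAT2 and deposited raw counts per transcript row from featureCounts 1.6.3. Annotation version and strand setting are not given in the sources used here. The 3886 rows without a gene name (4.56% to 8.58% of the counts of the control libraries) were dropped and rows sharing a symbol summed, giving 23191 symbols. Genes were kept by filterByExpr (count minimum 10), scaled by TMM and tested in R 4.3.3 with edgeR 4.0.16 (quasi-likelihood, robust), with Benjamini-Hochberg adjustment and a threshold of 0.05. Levels are TMM-scaled CPM. DESeq2 1.42.0 and limma 3.58.1 (voom), other filters and scalings, a replicate block and leaving out each mouse were alternatives. Single values were also tested by two-sided exact permutation over all splits of the mice. Scripts were tested on simulated data. The members and 41 gene lists were chosen with earlier results of these data known. Named genes were the 12 largest rises and falls among called genes with a mean of at least 5 CPM in the higher group and no overlap between diets, the 5 smallest p-values of each list, genes named in the study, regulators of the lists and members called against their list, and others were chosen after their values were seen. Promoter sequences came from RefSeq. Counting intervals cover counting error only. Some genes of these lists are not reported by name here, though they are in the counts.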

Additional observations from a re-analysis of the deposited data

Results flagged for a closer look

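In groups of 7 mice, a mouse was marked where the gap between the highest or lowest value and its nearest neighbor took up an unusually large share of the group's range by Dixon's test. Of 218 groups looked at, 17 were marked, and chance marks about 1 in 20. HF/HS replicate 7 accounted for 4. It was the highest for Saa1, an acute phase protein (1238 CPM, gap 0.91 of the range), and for Mt2 (183 CPM, gap 0.973), and it stood out in its median correlation with the other HF/HS mice (0.980, gap 0.764) and in the level of complement and coagulation genes (gap 0.581). On chow, replicate 3 was highest for Saa1 (247 CPM, gap 0.929) and for the level of acute phase genes (gap 0.798), and replicate 2 stood apart in Mt2 (gap 0.641) and Abcc3 (gap 0.655). Chow replicate 5 was marked for Cyp26a1 (125 CPM, gap 0.74) and the level of cholangiocyte genes (gap 0.606). Chow replicate 4 was marked for Etnppl (gap 0.605), Ifi44 (gap 0.58) and the level of periportal genes (gap 0.57), and chow replicate 3 for Slco1a4 (gap 0.569). On HF/HS, replicate 4 was highest for Hmgcs1 (264 CPM, gap 0.707), replicate 2 was marked for Apoa1 (gap 0.648), and replicate 1 was lowest for the level of lymphocyte and neutrophil genes (gap 0.569).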

How the results depend on the processing

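The 1424 calls in controls were 1939 with DESeq2 (962 higher, 977 lower), 1435 with voom, 1228 with no filter and 976 to 1780 with 1 mouse left out (lowest without chow replicate 6, highest without HF/HS replicate 4). With the replicate block they were 774 (337 higher, 437 lower). Same-numbered mice did not deviate together (correlations -0.253 to 0.102, and 0 of 7 correlated best with its own number), so the numbers were not taken to pair the mice. In HGFAC-KO mice the 802 calls were 1401 with DESeq2 and 467 to 950 with 1 mouse left out. Mt2 reversed from 1.81 to -1.60 with DESeq2 (adjusted p = 0.0205) and lay between -1.84 (without HF/HS replicate 7) and 2.13 with 1 mouse left out, and the cause was not tested. Of 210 called genes followed, 159 kept their call without each mouse. When all 27 mice shared 1 estimate of the spread, the calls on Cyp2d9, Cyp2j5, Cyp4a12b, Dbp, F11, Ghr, Hgf, Hmgcs1, Nr1d1, Plau, Slc25a13 and Sult1b1 were lost, besides those on Acacb, Elovl5 and Insig1. With no filter on low counts, those on Cish, Cyp2j5, Fgb, Foxo1, Gclc, Ghr, Hgf, Hmgcs1, Met, Mpeg1, Slc10a1, Slc25a13 and Sqle were lost.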
